A study of Mus musculus with 11 samples.

Results

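The genes described here are 46 genes of DNA replication, cyclin control and mitosis, taken by symbol from a list, out of 15274 genes measured by RNA sequencing in mouse hearts. All 46 symbols were found in the deposited table, and all 46 passed the filter on low values (a normalised count of at least 10 in at least 2 libraries). They were read in 3 classes: 13 genes of replication, 12 of cyclins and their control, and 21 of mitosis. The 11 libraries came from 6 mice of 8 weeks, all with D7 in their titles (read as day 7), and formed 4 groups: C3H/HeJ (C3H) injured regions (n = 2), C3H uninjured regions (n = 3), C57BL/6J (B6) injured regions (n = 3) and B6 uninjured regions (n = 3). Injured and uninjured tissue came from the same heart in 2 C3H and 3 B6 mice, and the third C3H mouse gave uninjured tissue only. The labels name no transgene, deletion or agent in any group, and they call the injury wounding without giving its method.

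A cell that divides first licenses its replication origins, where Cdc6 and Cdt1 load the Mcm2 to Mcm7 helicase, and geminin (Gmnn) then holds Cdt1 back until the next cycle. Cyclins with their kinases drive the passage into S phase and later into mitosis, and E2F, B-Myb (Mybl2) and Foxm1 switch on the genes of these phases in waves. Heart muscle cells of adult mice seldom divide, whereas fibroblasts, vessel cells and leukocytes do so after injury.

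Libraries held 9699985 to 22138459 reads assigned to genes. The level is the normalised count, which is the read count of a gene divided by the size factor of its library. Changes are log2 fold changes of the normalised count + 1, given with the standard error (SE) and with p adjusted over all 14751 genes tested. A change was called at an adjusted p under 0.05. The cardiac label was checked with Myh6, the alpha myosin heavy chain of heart muscle, which was at 149911 to 593019 in all libraries. Xist was at 1840 to 8478 in the C3H libraries and at 3.14 to 12.2 in the B6 libraries, with the Y-linked genes the other way round, so strain and sex cannot be told apart in any comparison of the strains. C3H uninjured library 2 stood apart. It was the lowest of all 11 libraries for 35 of the 46 genes (76.1%), against 12.8% of all genes tested. It also had Cdkn1a at 3339, against 707 and 616 in the other C3H uninjured libraries. Its summed markers were the lowest of its group for fibroblasts (49834), endothelium (21388) and cardiomyocytes (2163780). They were the highest of its group for neutrophils (1912), macrophages and monocytes (29021) and mural cells (100726). The uninjured value of C3H mouse 2 in each within-mouse difference is this library.

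Promoters of replication genes are known for E2F elements and those of mitotic genes for a shorter element read by other factors, so the letters of the promoters are shown by class. RefSeq promoter windows of build GRCm38.p6, 250 bases before to 50 after the start site, were matched to 36 of the 46 genes by symbol. Not matched were Mcm4, Gmnn, Ccne2, Ccnd1, Ccnd2, Ccna2, Foxm1, Aurkb, Kif20a and Tpx2. On both strands, 3 motifs were searched: the cell cycle gene homology region (CHR) TTTGAA, the E2F element as TTTGGCGC or TTTCCCGC, and the CCAAT box of NF-Y. The CHR was in the windows of 13 of 18 mitosis genes (72.2%), 2 of 7 cyclin genes (28.6%) and 1 of 11 replication genes (9.09%), against 14.4% of all 11071 tested genes with a window. E2F elements were in 6 of 11 replication genes (54.5%), 1 of 18 mitosis genes (5.56%) and 0 of 7 cyclin genes, against 3.22% of all genes. CCAAT boxes were in 77.8% of the mitosis genes, 72.7% of the replication genes and 42.9% of the cyclin genes, against 42.1% of all genes. Windows per gene averaged 1.08 for the 36 genes and 1.27 for all genes. A match is a description of letters and not a site of binding.

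**Figure D1:**
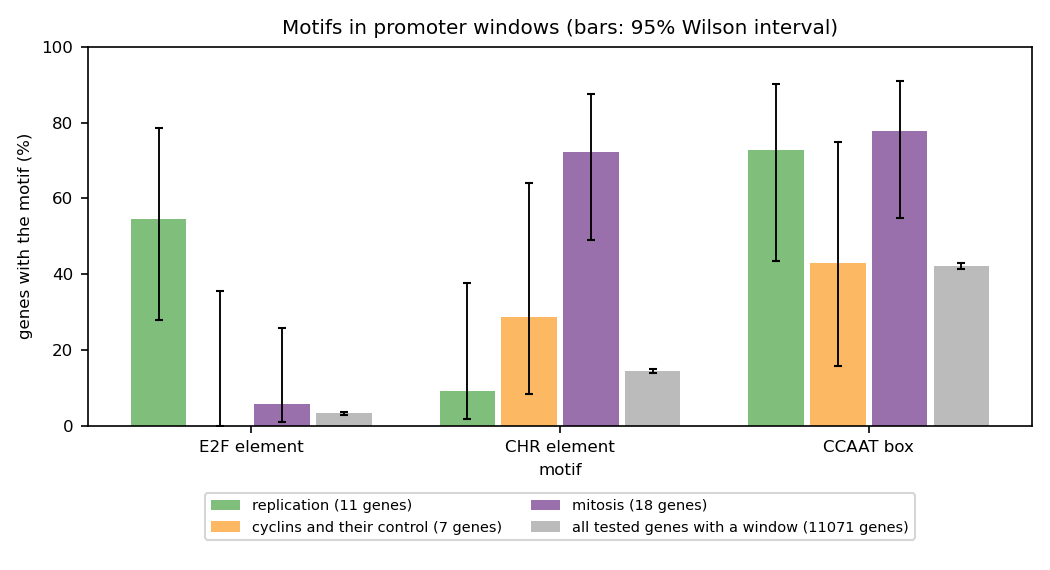
Share of genes whose promoter window holds each motif on either strand (vertical axis, %), by motif (horizontal axis), for the 3 classes and all tested genes with a window; vertical lines are 95% Wilson intervals, which cover counting error only. The E2F bar is highest for replication genes (54.5%) and the CHR bar for mitosis genes (72.2%), against 3.22% and 14.4% of all genes.

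Whole windows are printed for the gene of each class with a motif that had the smallest p for injury in C3H, so that the genes with the clearest change can be read. Capitals mark matches of the 3 motifs on either strand (ATTGG is CCAAT and TTCAAA is the CHR read on the other strand). The windows are those of Rrm2 (chr12:24708004-24708303, plus strand), Ccnb1 (chr13:100786437-100786736, minus strand) and Kif2c (chr4:117178723-117179022, minus strand), each 5′ to 3′ along its gene.
Rrm2: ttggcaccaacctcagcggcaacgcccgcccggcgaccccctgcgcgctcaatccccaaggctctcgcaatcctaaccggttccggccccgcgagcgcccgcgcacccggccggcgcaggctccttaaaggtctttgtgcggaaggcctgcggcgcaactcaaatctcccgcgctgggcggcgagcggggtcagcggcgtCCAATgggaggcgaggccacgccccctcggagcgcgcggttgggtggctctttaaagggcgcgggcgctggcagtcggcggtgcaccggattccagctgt
Ccnb1: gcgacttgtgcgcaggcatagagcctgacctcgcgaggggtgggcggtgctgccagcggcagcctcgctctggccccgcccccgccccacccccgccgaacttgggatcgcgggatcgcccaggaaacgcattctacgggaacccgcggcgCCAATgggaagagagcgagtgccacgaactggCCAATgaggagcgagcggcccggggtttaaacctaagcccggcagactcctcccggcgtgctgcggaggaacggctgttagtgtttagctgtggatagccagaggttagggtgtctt
Kif2c: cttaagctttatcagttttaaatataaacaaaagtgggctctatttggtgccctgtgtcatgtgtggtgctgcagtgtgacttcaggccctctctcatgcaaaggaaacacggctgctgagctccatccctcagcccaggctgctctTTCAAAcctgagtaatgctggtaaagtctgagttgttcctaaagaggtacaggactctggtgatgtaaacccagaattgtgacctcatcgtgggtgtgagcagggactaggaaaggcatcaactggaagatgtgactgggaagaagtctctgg
Rrm2 holds a CCAAT box at -50 from the start site (counted as 1), Ccnb1 holds CCAAT boxes at -99 and -67, and Kif2c holds a CHR on the other strand at -103. No E2F element was among them.

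Stretches from -120 to 50 are added for 4 genes chosen after the search, because they show motifs of their class side by side. They are Mcm6 (chr1:128359656-128359825, minus strand), Ccnb2 (chr9:70421505-70421674, minus strand), Cdc20 (chr4:118437294-118437463, minus strand) and Plk1 (chr7:122159315-122159484, plus strand).
Mcm6: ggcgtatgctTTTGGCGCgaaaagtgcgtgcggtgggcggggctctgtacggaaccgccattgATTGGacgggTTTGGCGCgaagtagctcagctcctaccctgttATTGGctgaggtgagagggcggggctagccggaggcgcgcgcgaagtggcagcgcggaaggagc
Ccnb2: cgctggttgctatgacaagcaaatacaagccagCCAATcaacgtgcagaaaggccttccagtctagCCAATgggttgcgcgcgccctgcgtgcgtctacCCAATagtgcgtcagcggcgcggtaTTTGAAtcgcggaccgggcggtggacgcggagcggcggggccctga
Cdc20: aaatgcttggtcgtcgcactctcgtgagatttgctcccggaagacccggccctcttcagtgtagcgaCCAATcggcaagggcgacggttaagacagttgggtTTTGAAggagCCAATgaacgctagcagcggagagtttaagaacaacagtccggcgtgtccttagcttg
Plk1: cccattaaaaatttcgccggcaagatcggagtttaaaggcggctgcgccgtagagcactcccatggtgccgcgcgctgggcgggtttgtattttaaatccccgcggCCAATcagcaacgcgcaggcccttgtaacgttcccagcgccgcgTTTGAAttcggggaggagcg
Mcm6 has E2F elements at -110 and -47, between them a CCAAT box on the other strand at -57, and another at -14. Ccnb2 has CCAAT boxes at -87, -54 and -21 and a CHR at 5, and Plk1 a CCAAT box at -14 and a CHR at 31. Cdc20 has a CHR at -18 between CCAAT boxes at -53 and -8. None of the printed matches shared a base with another.

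The first comparison set injured against uninjured regions of C3H hearts. Cyclins A and B, their kinase and genes of the mitotic spindle rose, as did 3 genes of replication, and the replication inhibitor Gmnn fell. Of all 46 genes, 24 rose and 1 fell, a share of 54.3%, whereas 30.7% of all genes tested were called (15.3% higher and 15.4% lower). The median change was 1.54 over the 46 genes and 0.01 over all genes tested. By class, 15 of 21 mitosis genes rose and 0 fell (median 2.01), 6 of 12 cyclin genes rose and 0 fell (median 1.81), and 3 of 13 replication genes rose and 1 fell (median 0.78). The shares called were 71.4%, 50% and 30.8%, so that of replication was near the 30.7% of all genes tested. In 33 genes both injured libraries lay above all 3 uninjured ones, in 2 they lay below, and in 11 the groups overlapped, against 29.6% of all genes above and 29.7% below. An unadjusted p under 0.05 was found for 34 of the 46 genes, against 42.3% of all genes. These are bulk tissues, where fewer cells of a type and less RNA per cell cannot be told apart.

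C3H injured libraries 1 and 2 differed in these genes, and the calls leaned on both. Library 1 was the higher of the 2 in 44 of 46 genes (95.7%), against 51.0% of all genes tested. Without either of these libraries most of the 25 calls were lost, while all 25 kept their direction. Without library 1 the share called was smaller among the 46 genes than among all genes tested. Without C3H uninjured library 2, 17 rose and 1 fell, and the medians were 1.33 for mitosis, 1.35 for cyclins and 0.52 for replication. With the mouse as a block, 33 genes rose and 2 fell (random block) or 34 rose and 2 fell (fixed block). For the fits without C3H uninjured library 2 and with the blocks, the share of all genes called is not given here.

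**Figure D2:**
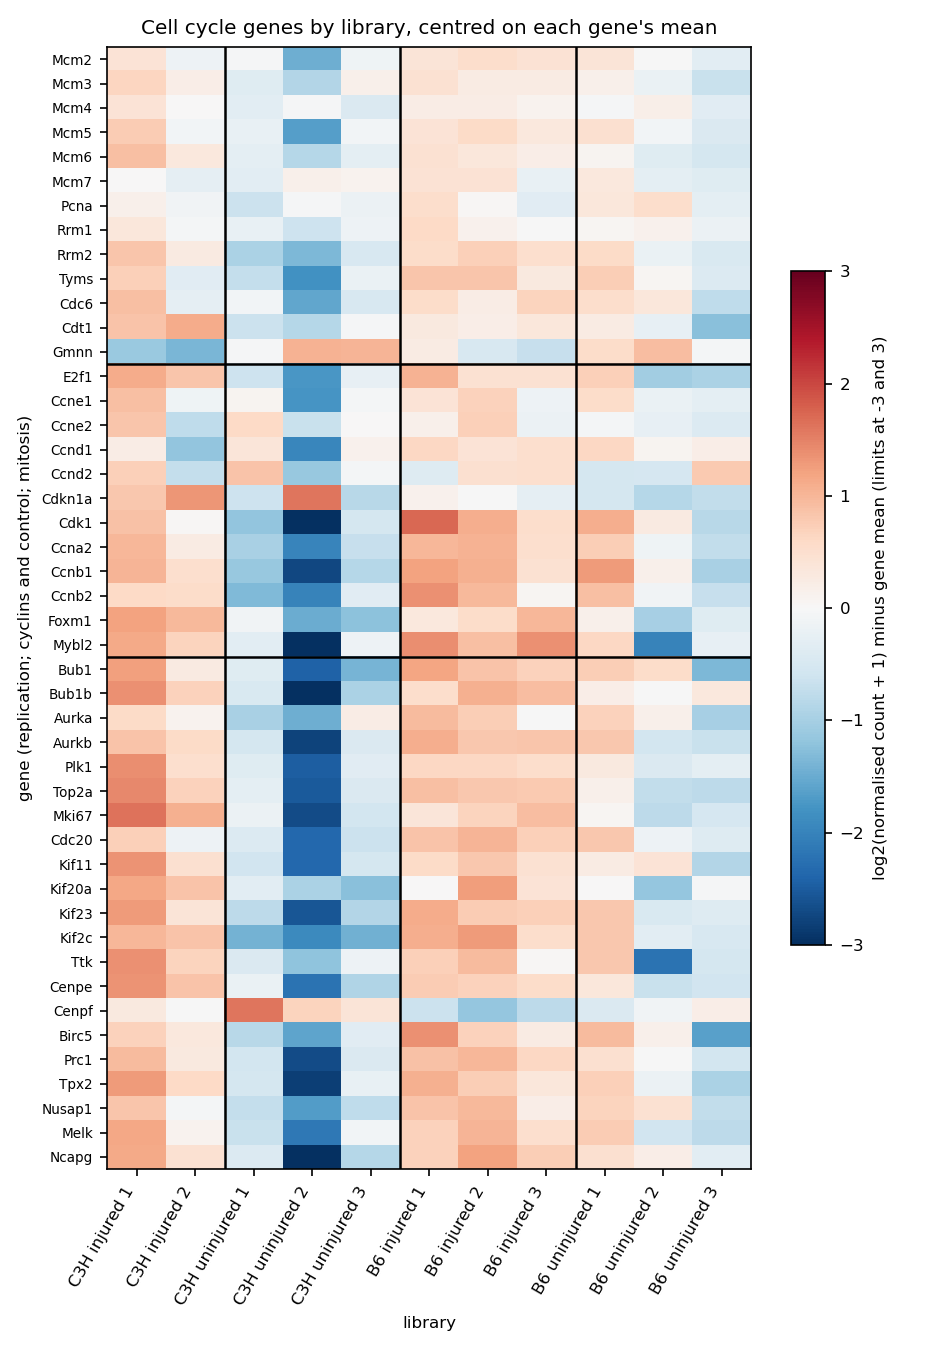
Level of each of the 46 genes (rows, by class from top to bottom) in each of the 11 libraries (columns, by group), as log2(normalised count + 1) minus the mean of the gene over all libraries, coloured from -3 to 3. Most rows are red in the C3H injured and B6 injured libraries and darkest blue in C3H uninjured library 2, and Gmnn, Cenpf and Cdkn1a have other patterns.

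Several lists of cell type markers also changed with injury in C3H, in differing directions. Between C3H injured libraries 1 and 2 the cell cycle genes were mostly higher in library 1, and sums of marker lists went either way. Summed macrophage and monocyte markers were 91464 in library 1 and 164252 in library 2, and fibroblast markers 750680 and 544049. Sums of cardiomyocyte, endothelial and T and NK cell markers and the level of Alas2 were also higher in library 1. Those of neutrophil, B cell and mural cell markers were higher in library 2. Among the 16 markers of macrophages and monocytes, 13 were called higher and 0 lower, and their summed level was 91464 to 164252 in injured against 16094 to 29021 in uninjured libraries. Of 12 fibroblast markers 8 rose and 0 fell, with sums of 544049 to 750680 against 49834 to 264427. Of 15 cardiomyocyte markers 0 rose and 12 fell, with sums of 717404 to 820164 against 2163780 to 2726770. Endothelial markers overlapped in their sums (20076 to 25750 in injured against 21388 to 34093 in uninjured libraries, with 2 of 11 lower and 0 higher). Neutrophil sums overlapped too (348 to 1618 against 67.3 to 1912, with 1 of 6 higher). Summed T and NK cell markers were 153 to 185 in injured against 57.4 to 123 in uninjured libraries (0 of 8 called), and B cell markers 83.9 to 92.6 against 28.3 to 75.3 (0 of 5). Mural cell sums were 50693 to 52749 against 76307 to 100726 (1 of 7 higher, 2 lower), and the single erythroid marker found, Alas2, was at 30.4 to 144 against 85.8 to 270.3. The most abundant macrophage marker, Lyz2, had 44705 and 75536 in C3H injured against 6196, 10017 and 6327 in C3H uninjured libraries, and the most abundant fibroblast marker, Col3a1, had 249675 and 185054 against 100456, 7115 and 26937. In the other lists it was Myh6 (cardiomyocytes), Cdh5 (endothelium), Cd4, Cd79b, S100a9 (neutrophils), Des (mural cells) and Alas2. Cd3d, Nkg7 and Klrb1c of T and NK cells, Ms4a1 of B cells and Mmp8 of neutrophils were listed at 0 in at least 1 library. In B6 0 markers of any list were called for injury, and macrophage sums were 46686 to 64796 in injured against 28384 to 40621 in uninjured libraries (14 of 16 values above 0). Their cardiomyocyte sums were 1250890 to 1596070 in injured against 2046510 to 2533740 in uninjured libraries (15 of 15 values below 0). Fibroblast sums were 455079 to 468832 against 201582 to 413474 (12 of 12 above 0), and T and NK cell sums 176 to 288 against 82.5 to 156 (8 of 8 above 0). These 4 pairs of ranges did not overlap. The part of these cell types in the changes of the cell cycle genes was not tested.

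Among replication genes, 1 subunit of the helicase and its loader rose, and other subunits did not pass. Mcm6, a subunit of the helicase, had 790.4 and 532 normalised counts in the C3H injured libraries, against 349.5, 237 and 349 in the uninjured ones. The groups did not overlap, and Mcm6 rose by 1.08 (SE 0.27, adjusted p = 0.0119). In B6 hearts, Mcm6 had 585, 536 and 491 in injured against 453, 329.7 and 297 in uninjured libraries, which did not overlap either (0.60, SE 0.25, adjusted p = 0.365). Cdt1, the loader of the helicase, had 203 and 241 in C3H injured libraries, against 71.3, 61.8 and 108 in uninjured ones. Cdt1 rose by 1.49 (SE 0.41, adjusted p = 0.0167), with every injured library above every uninjured one. In B6 hearts, Cdt1 had 138, 128 and 141 against 134, 93.3 and 46.0, where the lowest injured library (128) lay under the highest uninjured one (134), at 0.70 (SE 0.36, adjusted p = 0.419). Mcm7, of the same helicase, had 310.4 and 258 in C3H injured against 248, 344 and 333 in uninjured libraries. Here the uninjured libraries spanned the injured ones and the change was -0.11 (SE 0.30, adjusted p = 0.807). In B6 hearts, Mcm7 had 417, 418 and 263 against 385, 253 and 239, with overlap as well (0.32, SE 0.27, adjusted p = 0.581).

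Gmnn, the inhibitor of Cdt1, went the other way. It had 329 and 278 normalised counts in C3H injured libraries, against 695, 1481 and 1444 in C3H uninjured ones. Both injured libraries lay below all uninjured ones, and Gmnn fell by 1.91 on the log2 scale (SE 0.39, adjusted p = 0.00376), a call that held without any single library. In B6 hearts, Gmnn had 851, 509.8 and 446 in injured against 1055, 1358 and 685 in uninjured libraries. These groups overlapped and the value of -0.78 did not pass (SE 0.35, adjusted p = 0.372). Gmnn was lower in the injured region of 5 of 5 mice, with log2 differences of -1.08 and -2.41 in C3H mice and -0.31, -1.41 and -0.62 in B6 mice. Cdt1 was higher in the injured region of the same 5 mice.

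Of the enzymes that supply nucleotides and the sliding clamp, 1 rose. Rrm2, the small subunit of ribonucleotide reductase, had 269.8 and 181 in C3H injured libraries, against 78.2, 58.6 and 107 in uninjured ones. Rrm2 rose by 1.47 (SE 0.36, adjusted p = 0.00945) with no overlap. In B6 hearts, Rrm2 had 223, 248 and 214 against 224, 131 and 109.6, with the highest uninjured library above 2 of the injured ones (0.62, SE 0.32, adjusted p = 0.409). Pcna, the clamp that holds polymerases on DNA, had 643 and 538 in C3H injured against 370.3, 565 and 506 in uninjured libraries, which overlapped (0.31, SE 0.32, adjusted p = 0.476). In B6 hearts, Pcna had 833, 585 and 451 against 729, 836 and 468, with overlap as well (-0.12, SE 0.28, adjusted p = 0.864). The other replication genes were Mcm2, Mcm3, Mcm4, Mcm5, the large reductase subunit Rrm1, thymidylate synthase (Tyms) and the licensing factor Cdc6. Their changes in C3H were between 0.47 (Mcm4) and 1.11 (Tyms), with adjusted p from 0.0936 to 0.224. Without C3H injured library 1 the calls of Mcm6 (0.79, adjusted p = 0.132), Rrm2 (1.18, adjusted p = 0.0950) and Cdt1 (1.61, adjusted p = 0.0593) were lost, and without C3H injured library 2 that of Cdt1 (1.37, adjusted p = 0.122). With the mouse as a fixed block Mcm2, Mcm3, Mcm5 and Tyms were called too, at 0.88, 1.03, 1.27 and 1.46. For C3H that fit rests on the 2 mice with both regions, and C3H uninjured library 2 is from 1 of them. In the main fit without that library these genes were at 0.20, 0.52, 0.49 and 0.65 (adjusted p from 0.254 to 0.647).

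Cyclins of late S phase and mitosis rose in C3H, and those of the start of the cycle did not pass. Ccnb1, cyclin B of mitotic entry, had 109.8 and 76.3 normalised counts in C3H injured libraries, against 23.8, 7.33 and 29.3 in uninjured ones. It rose by 2.33 (SE 0.65, adjusted p = 0.0185). In B6 hearts, Ccnb1 had 126, 115 and 74.8 against 131, 60.1 and 27.1, where B6 uninjured library 1 was above all injured ones (0.77, SE 0.58, adjusted p = 0.554). Cdk1, the kinase that cyclin B activates, had 323 and 181 in C3H injured against 76.2, 19.9 and 122 in uninjured libraries. It rose by 2.06 (SE 0.70, adjusted p = 0.0423), without overlap of the groups. In B6 hearts, Cdk1 had 581, 376 and 254 against 372, 212 and 97.8, with overlap (0.95, SE 0.62, adjusted p = 0.498). Ccna2, the cyclin of S phase and its end, had 382 and 228 in C3H injured against 97.0, 48.2 and 118 in uninjured libraries. It rose by 1.83 (SE 0.46, adjusted p = 0.0112), and again no library crossed over. In B6 hearts, Ccna2 had 382, 396 and 273 against 322, 174 and 115, with overlap (0.89, SE 0.41, adjusted p = 0.374). Ccnb2, the second B cyclin, whose promoter is printed above, rose by 1.79 (SE 0.55, adjusted p = 0.0284).

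Cyclins D and E, which drive cells into S phase, did not pass. Ccnd1 had 1669.8 and 632 normalised counts in C3H injured libraries, against 1841, 365 and 1560.1 in uninjured ones. The change was 0.02 (SE 0.58, 95% interval -1.24 to 1.27), with low values in 1 library of each group. In B6 hearts, Ccnd1 had 2184, 1914 and 2029 against 2184, 1512 and 1654 (0.21, SE 0.52). Ccne2 had 49.3 and 15.5 in C3H injured against 41.6, 16.8 and 27.5 in uninjured libraries, at 0.05 (SE 0.55, 95% interval -1.14 to 1.24). In B6 hearts, Ccne2 had 30.2, 45.6 and 24.1 against 26.0, 22.8 and 20.0, with overlap (0.48, SE 0.49). Ccne1 was at 0.97 (adjusted p = 0.214) and Ccnd2 at 0.12 (adjusted p = 0.897) in C3H. Ccne1 was called where the mouse was a fixed block, at 1.23 (adjusted p = 0.0402). In the main fit without C3H uninjured library 2 it was at 0.37 (adjusted p = 0.583). The intervals given do not show that the cyclins were unaltered.

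The transcription factors of the cycle were higher in injured C3H regions in 2 of 3 cases by the test. Foxm1, which activates mitotic genes, had 203 and 172 in C3H injured libraries, against 81.2, 30.4 and 36.4 in uninjured ones. Foxm1 rose by 2.03 (SE 0.45, adjusted p = 0.00580), and the call held without any single library. In B6 hearts, Foxm1 had 109, 129 and 174 against 97.0, 43.6 and 67.2, also without overlap, but at 1.03 it did not pass (SE 0.40, adjusted p = 0.364). E2f1, the activator of S phase genes, rose by 1.83 (SE 0.54, adjusted p = 0.0246). Mybl2, chosen here after its values were seen, had 45.0 and 31.8 in C3H injured against 15.8, 1.05 and 17.8 in uninjured libraries, the lowest being 1 read. In B6 hearts, Mybl2 had 53.8, 37.7 and 52.4 against 30.8, 4.15 and 16.5. It did not overlap in either strain and passed in neither, at 2.17 in C3H (SE 0.93, adjusted p = 0.0961) and 1.77 in B6 (SE 0.83, adjusted p = 0.377). With the mouse as a block Mybl2 was called in C3H (2.39, adjusted p = 0.0227 with a random block). In the main fit without C3H uninjured library 2 it was at 1.13 (adjusted p = 0.264).

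Cdkn1a, an inhibitor of cyclin-dependent kinases and a target of p53, was also looked at after its values were seen. It had 1922 and 2757 normalised counts in C3H injured libraries, against 707, 3339 and 616 in uninjured ones. C3H uninjured library 2 was thus above both injured libraries, while the other 2 uninjured ones were below. The change was 1.02 (SE 0.55, adjusted p = 0.176), and without that library it was 1.80 (adjusted p = 0.000808). In B6 hearts, Cdkn1a had 1195, 1092 and 904 in injured against 757, 599 and 650.5 in uninjured libraries. These did not overlap (0.67, SE 0.49, adjusted p = 0.541).

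Without C3H injured library 1 Foxm1 was the cyclin class gene still called in C3H, and without C3H injured library 2 Foxm1 and Ccna2 were. The calls of Ccnb1 (1.76, adjusted p = 0.0504) and Cdk1 (1.32, adjusted p = 0.114) were also lost without C3H uninjured library 2, as were those of E2f1 (1.39, adjusted p = 0.0715) and Ccnb2 (1.40, adjusted p = 0.0838). The Cdk1 call was further lost without B6 injured library 2 (adjusted p = 0.0597) or B6 uninjured library 2 (adjusted p = 0.0538), and that of Ccnb2 without C3H uninjured library 1 (adjusted p = 0.0520).

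**Figure D3:**
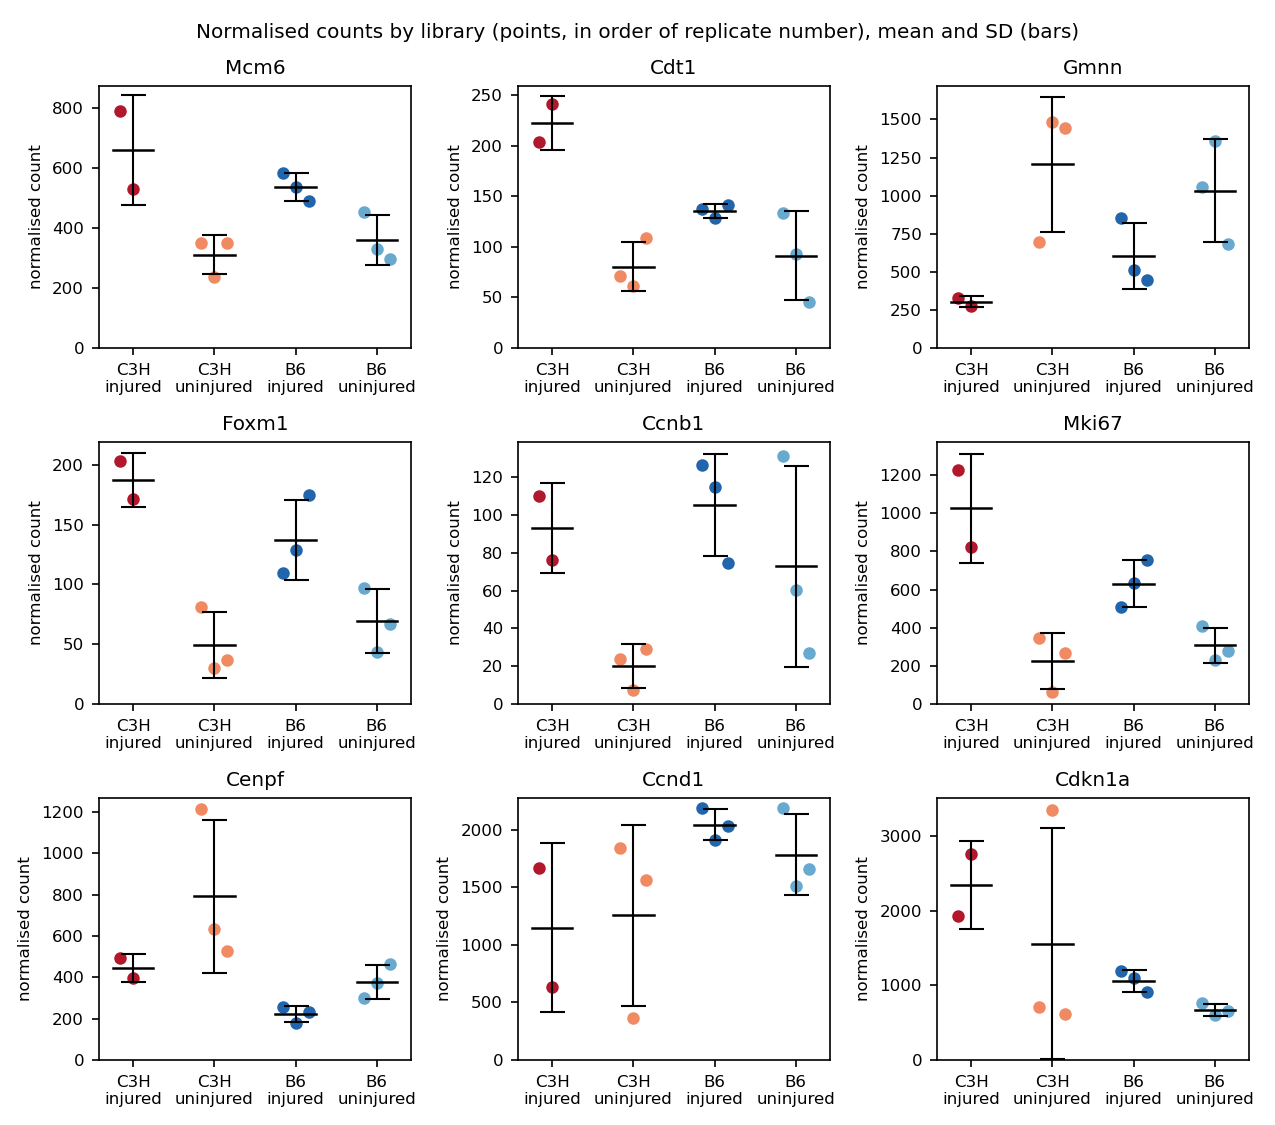
Normalised count (vertical axis, from 0) of 9 genes in each library (points, in order of replicate number), by group (horizontal axis: C3H injured, C3H uninjured, B6 injured, B6 uninjured); horizontal lines are group means and bars the SD. Mcm6, Cdt1, Foxm1, Ccnb1 and Mki67 are higher in both C3H injured libraries than in all C3H uninjured ones, Gmnn and Cenpf are lower, and Ccnd1 and Cdkn1a overlap.

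Of the mitosis genes 71.4% rose in C3H. Bub1b, a kinase-like protein of the spindle checkpoint, had 206 and 128 in C3H injured libraries, against 57.4, 5.23 and 40.8 in uninjured ones. It rose by 2.72 (SE 0.72, adjusted p = 0.0140), with 5 reads in C3H uninjured library 2. In B6 hearts, Bub1b had 115, 166 and 152 against 91.1, 78.8 and 99.0, without overlap (0.67, SE 0.64, adjusted p = 0.637). Kif2c, a kinesin that takes microtubules apart at centromeres and whose window is printed above, had 100.3 and 91.2 in C3H injured against 17.8, 12.6 and 17.8 in uninjured libraries. It rose by 2.52 (SE 0.43, adjusted p = 0.00154), a call that held without any single library. In B6 hearts, Kif2c had 108, 121 and 72.2 against 87.6, 39.4 and 35.4, with B6 uninjured library 1 among the injured ones (0.97, SE 0.39, adjusted p = 0.365). Mki67, the Ki-67 protein of cycling cells, had 1228 and 824 in C3H injured against 349, 60.7 and 269 in uninjured libraries. It rose by 2.48 (SE 0.58, adjusted p = 0.00741). In B6 hearts, Mki67 had 509, 634 and 753 against 412, 230.2 and 280.5, so that every injured library was above every uninjured one in this strain too (1.06, SE 0.52, adjusted p = 0.388). Ncapg, a condensin subunit, had 92.5 and 56.5 in C3H injured against 30.7, 3.14 and 22.2 in uninjured libraries, the lowest being 3 reads. It rose by 2.34 (SE 0.70, adjusted p = 0.0252). In B6 hearts, Ncapg had 67.7, 96.6 and 69.6 against 58.0, 47.7 and 33.0, without overlap (0.76, SE 0.63, adjusted p = 0.584).

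The other 11 mitosis genes that rose did so by 1.45 to 2.25. They were the checkpoint kinase Bub1, the kinases Aurkb and Plk1, topoisomerase Top2a, the kinesins Kif11, Kif20a and Kif23, the centromere kinesin Cenpe, the microtubule bundler Prc1, and the spindle proteins Tpx2 and Nusap1. Top2a averaged 742 ± 272 normalised counts in C3H injured and 196 ± 120 in C3H uninjured libraries (SD, n = 2 and n = 3), a rise of 2.15. Plk1 averaged 116 ± 49.4 in C3H injured and 32.5 ± 20.0 in C3H uninjured libraries, a rise of 2.01. In B6, Top2a averaged 607 ± 26.5 in injured and 262 ± 104 in uninjured libraries (SD, n = 3 each) and was at 1.28 (SE 0.50, adjusted p = 0.364). Cdc20, the activator of the anaphase-promoting complex, was at 1.43 in C3H (adjusted p = 0.0641) and did not pass. The kinases Ttk and Melk and the survivin gene Birc5 did not pass either, at 1.61, 1.59 and 1.41 (adjusted p from 0.0728 to 0.110). A random block for the mouse called Cdc20 (1.52, adjusted p = 0.0119), Melk (1.76, adjusted p = 0.0132), Birc5 (1.53, adjusted p = 0.0223), Ttk (1.70, adjusted p = 0.0435) and Aurka (1.28, adjusted p = 0.0297). In the main fit without C3H uninjured library 2 these genes were at 0.82, 1.00, 1.08, 1.31 and 0.73 (adjusted p from 0.168 to 0.374). Aurka, a centrosome kinase, had 121 and 86.9 in C3H injured against 40.6, 28.3 and 93.2 in uninjured libraries, which overlapped (1.09, SE 0.56, adjusted p = 0.159). In B6 hearts, Aurka had 155, 135 and 79.9 against 131, 89.2 and 40.1, with overlap (0.60, SE 0.50, adjusted p = 0.586).

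Cenpf, a large kinetochore protein, had a value below 0 for injury in C3H, where the other 20 mitosis genes had values above 0. It had 491 and 396 in C3H injured libraries, against 1215, 633 and 527 in uninjured ones. In B6 hearts, Cenpf had 255, 179.9 and 233 in injured against 298, 371 and 464 in uninjured libraries. The groups did not overlap in either strain, yet with -0.75 in C3H (SE 0.34, adjusted p = 0.116) and -0.75 in B6 (SE 0.30, adjusted p = 0.365) it did not pass. With the mouse as a block it was called in C3H, at -0.84 (adjusted p = 0.0286) with a random block and -0.99 (adjusted p = 0.0172) with a fixed block. Its promoter window holds a CHR at 3 and CCAAT boxes at -132 and -71. Of the 15 mitosis genes that rose, Kif2c was the one still called without C3H injured library 1, 6 were without C3H injured library 2 and 11 without C3H uninjured library 2. Mki67 was then at 2.20 (adjusted p = 0.0619) without C3H injured library 1, Bub1b at 2.38 (adjusted p = 0.101) and 3.06 (adjusted p = 0.0552) without C3H injured library 1 or 2, and Ncapg at 1.99 (adjusted p = 0.156) and 2.69 (adjusted p = 0.0775). Without C3H uninjured library 2 the changes of called genes were smaller, with Bub1b at 1.72 (adjusted p = 0.00525), Mki67 at 1.71 (adjusted p = 0.00415), Ncapg at 1.44 (adjusted p = 0.0281), Top2a at 1.43 (adjusted p = 0.0119) and Plk1 at 1.31 (adjusted p = 0.0308). The calls of Bub1 and Nusap1 were also lost without C3H uninjured library 3 (adjusted p = 0.0719 and 0.0564), and those of Aurkb and Nusap1 without B6 injured library 2 (adjusted p = 0.0513 and 0.0529).

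**Figure D4:**
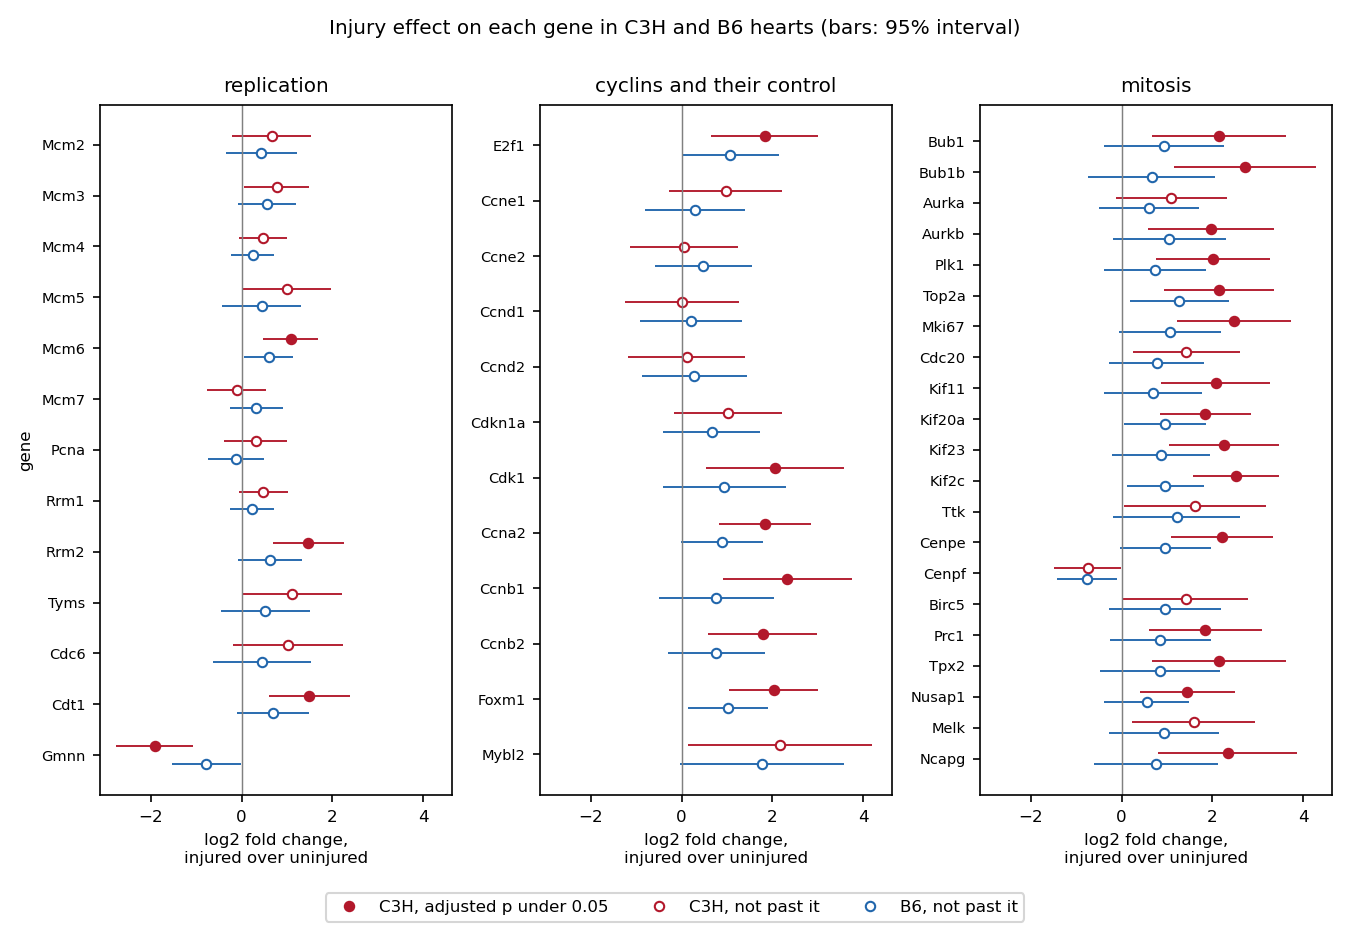
Log2 fold change of injured over uninjured regions (horizontal axis) of each of the 46 genes (rows), in C3H (red, upper point of each pair) and B6 (blue, lower point), with 95% intervals as bars; filled points passed an adjusted p of 0.05. The 25 filled points are all of C3H, 24 of them right of 0 and Gmnn left of it, and 43 of the 46 blue points lie right of 0.

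The second comparison asked the same of B6 hearts. Of the 46 genes 0 passed, against 0.0136% of all genes tested. The values were above 0 for 43 genes and below it for Gmnn, Cenpf and Pcna. Their median was 0.72 over the 46 genes, 0.87 for mitosis, 0.77 for cyclins and 0.44 for replication, against 0.01 over all genes tested. An unadjusted p under 0.05 with limma was found for 8 of 46 (Mcm6, Gmnn, E2f1, Foxm1, Top2a, Kif20a, Kif2c and Cenpf), against 13.4% of all genes. With edgeR and DESeq2 0 of 46 passed as well, and 7 and 10 had an unadjusted p under 0.05. The shares of all genes at an unadjusted p under 0.05 are those of limma, here and in the comparisons below. For edgeR and DESeq2 they are not given. In 16 genes all injured libraries lay above all uninjured ones, against 9.83% of all genes, and 10 of these 16 were of mitosis. In Cenpf alone they lay below, against 7.69% of all genes. B6 uninjured library 1 was the highest of its group for 38 of the 46 genes (82.6%), against 28.5% of all genes tested.

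The difference of the injury effects, C3H minus B6, was tested as an interaction. It was above 0 for 41 of 46 genes, with a median of 0.71, and 0 of 46 passed, against 1.57% of all genes tested (1.5% higher and 0.0678% lower). An unadjusted p under 0.05 with limma was found for Kif2c alone, against 14.1% of all genes, and with edgeR for 2 genes and DESeq2 for 4. Kif2c differed by 1.55 (SE 0.58, 95% interval 0.29 to 2.81, adjusted p = 0.244). Bub1b differed by 2.05 (SE 0.96, 95% interval -0.05 to 4.15, adjusted p = 0.368). For Gmnn it was -1.13 (SE 0.52, 95% interval -2.27 to 0.01, adjusted p = 0.358), and for Cenpf 0.01 (SE 0.46, 95% interval -0.99 to 1.00). Larger effects in C3H than in B6 are thus not shown for any single gene. Without C3H uninjured library 2 the median difference was 0.30, Kif2c was at 1.40 (adjusted p = 0.302), Bub1b at 1.05 (adjusted p = 0.303) and Gmnn at -0.94 (adjusted p = 0.453).

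The same libraries were also read within mice, as the difference between both regions of 1 heart. Of the 46 genes, 31 were higher in the injured than in the uninjured region of 5 of 5 mice (67.4%), against 18.6% of all genes tested, and Gmnn and Cenpf were lower in 5 of 5, against 19.9% of all genes. By class these were 18 of 21 mitosis genes, 7 of 13 replication genes and 6 of 12 cyclin genes. The median log2 difference over the 46 genes was 1.50 and 1.92 in C3H mice 1 and 2, and 0.24, 0.92 and 0.97 in B6 mice 1, 2 and 3. Ccnb1 was higher in 4 of 5 mice and by 0.06 lower in B6 mouse 1, and Rrm2 by 0.01 lower in that mouse. No gene had all mice of one strain on one side and all of the other strain on the opposite side.

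**Figure D5:**
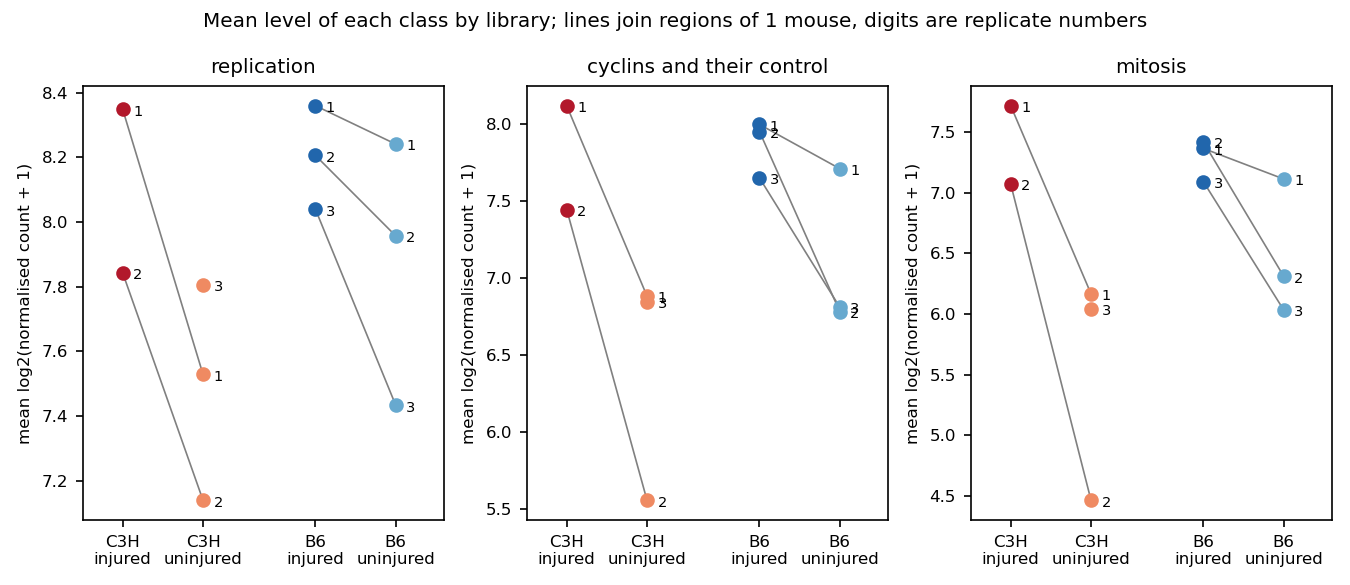
Mean level of each class (vertical axis, mean of log2(normalised count + 1) over its genes) in each library (points, numbered by replicate), by group (horizontal axis); lines join the regions of 1 mouse. All 5 lines run down from injured to uninjured in the 3 classes, and C3H uninjured library 2 is lowest, at 4.46 for mitosis.

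The strains were compared first in their uninjured regions. Of the 46 genes 40 had values below 0 for C3H against B6 (median -0.74), and 1 was called lower, Kif2c, a share of 2.17% against 3.1% of all genes tested (1.32% higher and 1.79% lower). Kif2c had 17.8, 12.6 and 17.8 normalised counts in C3H, against 87.6, 39.4 and 35.4 in B6 uninjured libraries, and differed by -1.59 (SE 0.39, adjusted p = 0.0470). This call was lost when any library but B6 uninjured library 3 was left out (adjusted p from 0.0573 to 0.175), and with only the groups compared (0.200). An unadjusted p under 0.05 was found for 16 of 46, against 16.3% of all genes, and 6 genes (Rrm2, Bub1b, Cdc20, Kif23, Kif2c and Ncapg) lay wholly below in C3H, against 9.27% of all genes, and Cenpf wholly above, against 7.63%. Without C3H uninjured library 2 the median was -0.26 and 34 genes were lower. Of 16 macrophage markers 15 had values below 0 in this comparison with all libraries (median -0.90, 2 called lower and 0 higher), and so had 11 of 12 fibroblast markers (median -0.82, 1 called lower and 0 higher). Their part in the result was not tested.

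In injured regions, the median of C3H against B6 was -0.09, 18 genes were higher and 28 lower, and 0 of 46 passed, against 7.06% of all genes tested (3.72% higher and 3.34% lower). An unadjusted p under 0.05 with limma was found for 2, Gmnn (-0.93) and Cenpf (1.00), against 23.8% of all genes; with edgeR it was 2 and with DESeq2 3 genes. In 5 genes (Cdt1, Cdkn1a, Mki67, Cenpe and Cenpf) C3H lay wholly above, against 24.9% of all genes, and in Gmnn and Ccnd1 wholly below, against 24.2%. With only the groups compared, Cdkn1a (1.12, adjusted p = 0.0235) and Cenpf (1.00, adjusted p = 0.0397) passed.

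Other genes of the same pathways, from lists drawn up beside the 46, are given by count. In C3H 30.7% of all genes tested were called (15.3% higher and 15.4% lower). Of 62 other mitosis genes 34 rose and 1 fell (54.8% and 1.61%, median 1.73), of 40 other cyclin, kinase and E2F control genes 10 rose and 2 fell (25% and 5%, median 0.45), and of 43 other replication genes 7 rose and 2 fell (16.3% and 4.65%, median 0.27). Those that fell were Cenpa (-1.30) of the centromere, Ccng1 (-1.10) and the repressor E2f6 (-1.22), and the replication genes Pold2 (-0.78) and Dut (-1.05). In B6 and for the difference of the effects 0 passed in each list. Those with the largest change past the threshold were Cenph, Casc5 and Ckap2l for mitosis, Cdc25c, Ccnf and E2f2 for control, and Hells, Mcm10 and Cdc7 for replication. Cenph, of the inner kinetochore, rose by 3.35 (SE 0.98, adjusted p = 0.0230), with 22.5 and 21.2 in C3H injured against 0, 1.05 and 4.44 in uninjured libraries, and so rests on few reads. Casc5, the kinetochore scaffold for Bub1, rose by 3.17 (SE 0.93, adjusted p = 0.0231), with 88.2 and 67.1 against 33.7, 3.14 and 3.55. Cdc25c, the phosphatase that activates Cdk1, rose by 2.63 (SE 0.78, adjusted p = 0.0246), with 36.3 and 18.4 against 3.96, 1.05 and 7.10. E2f2, an activating E2F, rose by 2.07 (SE 0.42, adjusted p = 0.00346), with 85.6 and 70.7 against 23.8, 10.5 and 22.2. Mcm10, which joins the helicase at firing, rose by 1.62 (SE 0.50, adjusted p = 0.0276), and Cdc7, the kinase that fires origins, by 1.48 (SE 0.45, adjusted p = 0.0264). Hells, a chromatin remodeller, rose by 1.72 (SE 0.50, adjusted p = 0.0216), Ccnf by 2.22 (SE 0.53, adjusted p = 0.00861) and the spindle protein Ckap2l by 2.55 (SE 0.66, adjusted p = 0.0126).

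Of 20 p53 target genes 7 rose and 3 fell in C3H (35% and 15%, median 0.41), against 15.3% of all genes tested higher and 15.4% lower. Pmaip1, the Noxa gene of apoptosis, rose by 2.53 (SE 0.54, adjusted p = 0.00454), with 45.8 and 67.8 normalised counts in C3H injured against 14.9, 8.38 and 5.33 in uninjured libraries. Plk3, a stress kinase, rose by 1.91 (SE 0.30, adjusted p = 0.00100), with 381 and 339.9 against 106, 96.3 and 84.4. Eda2r, a receptor of the tumour necrosis factor family, rose by 1.81 (SE 0.45, adjusted p = 0.0105). Those that fell were Ccng1 (-1.10), which stands in the cyclin control list too, Gadd45a (-1.12) and Perp (-1.48).

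Some counts could be altered by a neighbour on the other strand, through reads gained or lost, since no source used here gives the strand setting of the counting. In GENCODE exons the share of exon bases overlapped by a gene of the opposite strand was 31.8% for Kif20a (with Cdc23), 21.9% for Ccnd1, 21.8% for Prc1 (with Rccd1) and 20.8% for Ncapg (with Lcorl). It was about 10% for Mcm7, Ccne2, Ccna2 and Cdkn1a. Pcna, Tyms, Ccnb1 and Ccnb2 have named pseudogenes, and the effect of these copies on their counts was not tested.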

How the data were processed

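Total RNA of heart regions was isolated with a column kit and sequenced after a standard Illumina preparation, per the labels' protocols. The deposited table holds a normalised signal, the gene count of each library divided by 1 size factor. Per the submitters' processing notes, TopHat2 2.0.11, HTSeq 0.6.1, DESeq and the mouse build mm9 were used. No source used here gives the annotation, the strand setting or filters. Dividing by the step of low values gave whole reads for 100% of the values (within 1e-06), so read totals and the count tests rest on recovered counts.

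A gene had to reach 10 in 2 or more libraries, which 14751 of 15274 genes did and 523 did not. Limma 3.58.1 (R 4.3.3, trended empirical Bayes) was run on log2(signal + 1) with 4 group means over 11 libraries, 7 residual degrees of freedom and Benjamini-Hochberg adjustment over all genes tested. Fold changes on this scale understate those of low genes. The 46 genes and the other lists were chosen with earlier results of these data known. Genes with values in every library were those that fell past the threshold in any comparison and, in each class, the 4 with the largest change past the threshold and the 2 with the largest p for injury in C3H; Cdkn1a and Mybl2 were chosen after their values were seen. In each pathway list the 3 with the largest change past the threshold were named. Sgol2 and the markers Trac, Pax5, Ly6g, Hba-a1, Hba-a2, Hbb-b1 and Hbb-b2 had no row under that symbol.

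Same-numbered libraries of a strain came from 1 mouse, as the labels name it, so the numbers pair them. Their deviations from the group means correlated at 0.305 and 0.575 in C3H mice and at 0.276, -0.0140 and 0.524 in B6 mice. The alternatives were pseudocounts of 0.5 and 5, no filter, a mean of at least 50, quantile and TMM scaling, only the groups compared, the mouse as a random or fixed block, edgeR 4.0.16 and DESeq2 1.42.0 on the recovered reads, each library left out, and motifs on the printed strand only. The main limma fit was also run on simulated counts, with the same spread setting for all genes, no link within mice and no outlying library. That check therefore does not cover these features of the data. Promoter sequences are from RefSeq (GRCm38.p6), and exon overlaps from GENCODE M21; no coordinates were joined with the deposited table.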

Additional observations from a re-analysis of the deposited data

Results flagged for a closer look

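Of the genes examined beside the cell cycle genes, 5 macrophage markers were looked at again because their injury effects differed between the strains in the test of the difference itself (limma, C3H minus B6, adjusted over all genes tested). Of the 16 macrophage and monocyte markers tested, 5 were called higher and 0 lower, against 1.5% and 0.0678% of all genes tested. Their differences ran from -0.53 to 3.20, with 15 above 0 and 1 below. The difference was 2.54 for Adgre1 (SE 0.48, adjusted p = 0.0226), 3.07 for Cd68 (SE 0.36, adjusted p = 0.00394), 2.51 for Lyz2 (SE 0.44, adjusted p = 0.0162), 3.20 for Mpeg1 (SE 0.53, adjusted p = 0.0124) and 2.51 for Tyrobp (SE 0.47, adjusted p = 0.0228). The effect of injury on Cd68, a lysosomal protein of macrophages, was 4.09 in C3H and 1.02 in B6, and on Mpeg1, a pore-forming protein of macrophages, 4.60 and 1.40. It was 3.56 and 1.02 for Adgre1, 2.99 and 0.47 for Lyz2, and 3.21 and 0.71 for Tyrobp. In uninjured regions 15 of 16 macrophage markers had values below 0 for C3H against B6 (median -0.90), and these values enter the difference. How the 5 differences depend on single libraries is not given here. Strain and sex cannot be told apart here.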

How the results depend on the processing

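For injury in C3H, 25 of the 46 genes passed with both pseudocounts, without a filter, with a mean of at least 50, with TMM and with edgeR, 27 with DESeq2, 20 with quantile scaling (where the median of all genes was -0.11 in place of 0.01) and 20 with only the groups compared. The last kept 18 of the 25, lost Aurkb, Bub1b (adjusted p = 0.0551), Cdk1 (0.0628), Ncapg (0.0775), Plk1, Prc1 and Tpx2, and gained Ttk and Birc5. All 25 genes kept their direction in these alternatives and in the 11 that leave out a library. With the mouse as a replicate block all 25 calls were kept and 35 (random) or 36 (fixed) passed. All genes called for injury in C3H were 4495 with a pseudocount of 0.5, in place of 4527. For the other alternatives named so far, leave-outs aside, this count is not given here. Their counts of members thus cannot be read as particular to the 46 genes. For injury in B6 the count of all genes called was 16 with the random block, 20 with the fixed block and 45 with DESeq2, in place of 2. For the difference of the effects it was 777, 491 and 722, in place of 231. Of the 46 genes the blocks called 0 in both, with 21 and 28 at an unadjusted p under 0.05 in B6 and 13 and 18 for the difference. Without the shares of all genes under the same blocks, these counts cannot be read as particular to the 46 genes. Between uninjured regions of the strains, 0 of the 46 were called with a pseudocount of 5, a mean of at least 50, quantile scaling, TMM, only the groups compared or the random block, and 3 with DESeq2, in place of 1; of all genes 184 were called with only the groups compared and 916 with DESeq2, in place of 458. Between injured regions, 2 of the 46 were called with only the groups compared, and 2014 of all genes with DESeq2, in place of 1042. Leaving out 1 library at a time gave 3 to 26 of the 46 genes for injury in C3H, 0 to 3 between uninjured and 0 to 1 between injured regions of the strains, and 0 for injury in B6 and for the difference. The count of all genes ran from 1703 to 5015, 1 to 6 and 11 to 272 for injury in C3H, injury in B6 and the difference, and from 213 to 788 and 100 to 1322 between uninjured and injured regions. Without C3H injured library 1 or 2 that group is 1 library, assumed to vary like the other groups.

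Of single genes, these turned their sign in an alternative, and ranges are over the leave-outs of 1 library. For injury in C3H, Mcm7 ran from -0.258 to 0.0251 (above 0 without C3H injured library 2). Ccne2 was -0.38 with quantile scaling and ran from -0.75 to 0.85, Ccnd1 was -0.12 with edgeR and -0.13 with DESeq2 and ran from -0.72 to 0.72, and Ccnd2 ran from -0.60 to 0.83; the values below 0 were those without C3H injured library 1 or uninjured library 2. For injury in B6, Pcna ran from -0.37 to 0.0856, above 0 without B6 injured library 3 or uninjured library 2. For the difference of the effects, Ccne2 ran from -1.23 to 0.38. Ccnd1 was 0.11 with the fixed block and ran from -0.93 to 0.50. Cdkn1a was -0.0825 with the fixed block, -0.13 with edgeR and -0.0781 with DESeq2, and ran from -0.0825 to 1.14. Mybl2 ran from -0.64 to 1.13. Cenpf, at 0.01, was -0.00019 with a pseudocount of 5, -0.0428 with TMM, -0.0903 and -0.24 with the random and fixed block, -0.11 with edgeR and -0.0735 with DESeq2, and ran from -0.24 to 0.36. On the printed strand only, 8.00%, 1.65% and 24.5% of all genes held a CHR, E2F element or CCAAT box. E2F elements were then in 8.33% of the 36 genes, 27.3% of the replication and 0% of the mitosis genes, and CCAAT boxes in 47.2% of the 36 genes. The cause of these changes was not tested.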

Other observations

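Among cell cycle genes outside the 46, Pttg1 differed between the strains in both regions, and Cenpk and Cdc25c in uninjured regions; the 3 were singled out after their values were seen. Pttg1, the securin that holds sister chromatids together until anaphase, had 137 and 87.6 normalised counts in C3H injured libraries, against 2102, 1427 and 1012 in B6 injured ones. In uninjured libraries it was between 94.1 and 144 in C3H, against 3038, 4295 and 1621 in B6. C3H against B6 was -3.71 in injured regions (SE 0.41, adjusted p = 0.000364) and -4.63 in uninjured regions (SE 0.37, adjusted p = 2.72e-05, limma). Cenpk, of the inner kinetochore, was at -3.30 in uninjured regions (SE 0.63, adjusted p = 0.0156), and Cdc25c at -2.92 (SE 0.70, adjusted p = 0.0442). In injured regions Cenpk was at -1.03 (adjusted p = 0.410) and Cdc25c at -0.47 (adjusted p = 0.749), and neither passed. Reads of both strains were counted on 1 genome build, strain and sex cannot be told apart, and the part of either in these values was not tested.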
